A study of Homo sapiens with 24 samples.

Results

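The outermost megabase of the autosome ends was examined in OG-seq of HAP1 cells. Members were 1 kb bins of autosomes in the deposited table that were not at 0 in all 12 columns and that lay less than 1000000 bp from the start of the chromosome or from its last bin in the table. The short arms of chromosomes 13, 14, 15, 21 and 22 were left out. This gave 35735 of 2805354 non-zero bins (2835235 bins in all), at 39 ends, of which 17 were p ends and 22 were q ends. Each end held between 207 and 1000 bins with a median of 954, and the lowest number was at 1p, where the members begin at position 793001 of chromosome 1 (GRCh38). The next 4 Mb inward of the same ends, with 154835 bins, served for comparison.

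HAP1, the source of all DNA, is an established human line with a nearly haploid chromosome set, obtained from KBM-7 leukaemia cells. Cells were WT, or lacked MUTYH (MUTYH-/), OGG1 (OGG1-/) or both glycosylases (DKO, labelled MUTYH-/ X OGG1-/). Each genotype was represented by 2 clones and 3 independent experiments, the DKO clones were made from an OGG1-/ clone, and all DNA was isolated with butylated hydroxytoluene and deferoxamine against oxidation. By the sample titles, each genotype had 2 OG libraries of 1 clone and 1 of the other. The table has 3 columns a genotype, and its column names do not give the clone. The p-values therefore measure the spread between columns, 2 of which share a clone, and not that between clones. In OG-seq, 8-oxoguanine (OG) is tagged with biotin, fragments are pulled down, and the reads are set against those of input DNA that was not pulled down. The deposited value of a bin is its OG reads minus scaled input reads, and here each column was divided by its mean over all bins, so that 1 is the genome average (the relative value). OG reads came to between 59601849 and 113915679 a column. The whole reads behind the deposited values could be recovered for every member, which gave the OG and the input reads of each bin.

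Subtelomeres are the stretches next to the telomere. They hold segmental duplications, minisatellites (short units repeated in tandem), stray copies of the telomere repeat TTAGGG, and, on many arms, dense genes. OGG1 removes OG that pairs with cytosine, and MUTYH removes adenine that was paired with OG, so both act on the same lesion. Runs of guanine, as in the telomere repeat and in G-quadruplex (G4) motifs, are known as easily oxidised.

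Stretches of 3 bins with some of the highest values at these ends are shown for the results on tandem repeats, from the GRCh38 reference, 5′ to 3′ on the + strand. Capitals mark the 12-mer found most often in the bin, 18 times in the 20q bin, 28 times in the 16p bin and 15 times in the 17p bin, with a median spacing of 20, 23 and 67 bases. None of them overlaps an exon, and they lie within the bodies of OPRL1, LMF1 and RPH3AL.
20q, chr20:64088571-64088750: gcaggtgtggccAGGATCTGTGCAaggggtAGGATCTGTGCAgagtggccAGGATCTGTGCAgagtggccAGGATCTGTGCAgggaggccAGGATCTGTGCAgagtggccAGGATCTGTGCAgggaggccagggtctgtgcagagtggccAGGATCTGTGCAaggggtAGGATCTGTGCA
16p, chr16:858341-858520: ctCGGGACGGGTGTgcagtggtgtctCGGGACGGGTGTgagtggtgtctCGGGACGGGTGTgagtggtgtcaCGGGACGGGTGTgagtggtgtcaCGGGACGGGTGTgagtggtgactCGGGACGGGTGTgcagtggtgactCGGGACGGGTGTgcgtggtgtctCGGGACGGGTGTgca
17p, chr17:256001-256180: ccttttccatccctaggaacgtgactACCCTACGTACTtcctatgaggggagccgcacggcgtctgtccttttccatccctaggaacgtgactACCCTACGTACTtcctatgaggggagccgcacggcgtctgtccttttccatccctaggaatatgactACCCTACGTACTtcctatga

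The outermost megabase carried more OG signal than the next 4 Mb in 11 of 12 columns. The relative value of the outermost megabase was 1.39, 1.40 and 1.33 in WT, 1.52, 1.26 and 1.28 in MUTYH-/, 1.38, 1.52 and 1.39 in OGG1-/ and 1.09, 1.43 and 1.22 in DKO. In the next 4 Mb it was 1.25, 1.25 and 1.23 in WT, 1.36, 1.16 and 1.19 in MUTYH-/, 1.27, 1.39 and 1.29 in OGG1-/ and 1.11, 1.36 and 1.20 in DKO. Both regions lay above the genome average in every column, and the first DKO column alone had the lower value in the outermost megabase. The mean difference was 0.0968 ± 0.0516 (SD, n = 12 columns), with p = 0.000977 in an exact two-sided sign permutation test over the columns, whose smallest possible p is 0.000488. The excess was not particular to the last megabase. It was 0.110 for the outermost 2 Mb against the next 3 Mb, and 0.0479 for the outermost 500 kb. Steps of 100 kb from 1000 to 2000 kb had mean values from 1.31 to 1.37, and the step from 2000 to 2100 kb had 1.24.

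**Figure D1:**
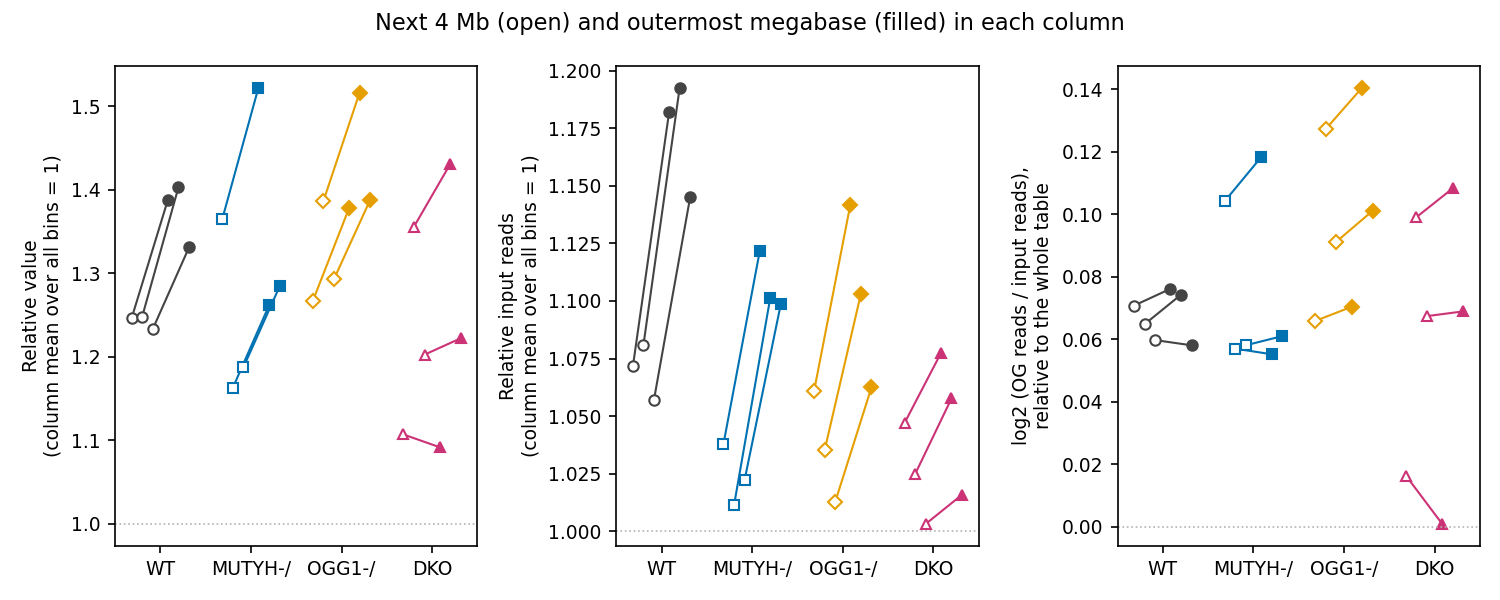
Relative value, relative input reads and log2 ratio of OG to input reads (y axes) in the next 4 Mb (open symbols) and in the outermost megabase (filled symbols), joined for each of the 3 columns of 4 genotypes. Relative value is higher in the outermost megabase in 11 of 12 columns and input reads in 12 of 12, while the log2 ratio differs by 0.00426 on average.

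The input DNA moved with this result. Input reads per bin in the outermost megabase stood at 1.11 ± 0.0518 (SD, n = 12) of the genome average against 1.04 ± 0.0251 in the next 4 Mb, higher in 12 of 12 columns, and OG reads at 1.17 ± 0.0612 against 1.09 ± 0.0308. The log2 ratio of OG to input reads was 0.0778 ± 0.0360 above the genome's in the outermost megabase and 0.0735 ± 0.0285 in the next 4 Mb. The difference of 0.00426 ± 0.00814 on the log2 scale was above 0 in 9 of 12 columns and did not pass the exact sign permutation test (p = 0.0991). The part of the input in the relative value was not tested apart from this ratio.

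Base composition moved too. The outermost megabase had 48.5% GC, the next 4 Mb 47.2% and all bins 40.9%, and CpG sites numbered 21.3, 17.9 and 9.84 per kb. Relative value rose with GC in the outermost megabase as elsewhere, from 0.531 ± 0.141 (SD over 12 columns) in bins under 35% GC to 1.78 ± 0.264 in bins of 55 to 60% GC, and was 1.63 ± 0.349 above 60% GC. At equal GC up to 60% the outermost megabase stayed slightly above the next 4 Mb: in bins of 45 to 50% GC the values were 1.47 ± 0.128 and 1.39 ± 0.104. Above 60% GC they were about equal, at 1.63 ± 0.349 and 1.63 ± 0.324. For GC centring, each bin was set against the mean of its GC stratum, in 20 strata of about equal numbers of bins. The highest stratum takes in all GC above about 55%, so bins rich in GC are matched only in part. With GC centring the outermost megabase exceeded the next 4 Mb by 0.0599 in relative value, in 10 of 12 columns (p = 0.00244, exact sign permutation). The exceptions were DKO columns. The DKO mean of this difference was -0.000620 ± 0.0260 (SD, n = 3), while all columns of the other genotypes lay above 0. Both regions contributed to the difference. The GC-centred value was 0.0287 ± 0.0495 (SD, n = 12) in the outermost megabase, above 0 in 10 columns. In the next 4 Mb it was -0.0313 ± 0.0144, below 0 in all 12.

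By genotype, WT showed a difference of 0.131 ± 0.0298 between the outermost megabase and the next 4 Mb, MUTYH-/ one of 0.118 ± 0.0345, OGG1-/ one of 0.112 ± 0.0175 and DKO one of 0.0264 ± 0.0455 (SD, n = 3 columns each). The DKO columns, at -0.0153, 0.0750 and 0.0196, all lay below the WT columns, at 0.141, 0.155 and 0.0976. The gap of -0.105 between DKO and WT had p = 0.1 in an exact permutation test, the smallest p that 3 columns against 3 allow. MUTYH-/ differed from WT by -0.0135 (p = 0.9) and OGG1-/ by -0.0193 (p = 0.4, both exact permutation tests). On the log2 ratio of OG to input reads the gap between DKO and WT was -0.00593 (p = 0.6, exact permutation). Input reads of the outermost megabase were between 1.15 and 1.19 of the genome average in the WT columns, between 1.10 and 1.12 in MUTYH-/, between 1.06 and 1.14 in OGG1-/ and between 1.02 and 1.08 in DKO, so the input too was lower in all 3 DKO columns than in all 3 WT columns.

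The level of the outermost megabase itself overlapped between the genotypes. WT stood at 1.37 ± 0.0379, MUTYH-/ at 1.36 ± 0.144, OGG1-/ at 1.43 ± 0.0772 and DKO at 1.25 ± 0.171. The differences from WT were -0.0178 for MUTYH-/ (p = 0.9), 0.0536 for OGG1-/ (p = 0.5) and -0.126 for DKO (p = 0.4), each by an exact permutation test of 3 columns against 3. Leaving out replicate 1, 2 or 3 means dropping the column of that number from each genotype. The column names do not tie these numbers to a clone or experiment. Doing so moved the DKO difference between -0.0403 (without 1) and -0.202 (without 2) and that of OGG1-/ between 0.0236 (without 2) and 0.0853 (without 1). The DKO columns ran from 1.09 to 1.43, a range wider than any of these differences.

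The signal did not climb steadily toward the telomere. In steps of 100 kb, pooled over the ends, the relative value was 1.38 ± 0.108 (SD over 12 columns) in the outermost step, 1.26 ± 0.0995 from 100 to 200 kb, 1.44 ± 0.152 from 700 to 800 kb and 1.33 ± 0.135 from 900 to 1000 kb. The outermost step exceeded the innermost step of the megabase by 0.0549 in 9 of 12 columns, which did not pass the exact sign permutation test (p = 0.0840). The outermost step held bins of 33 ends, since those of 1p, 11p, 14q, 17p, 19p and 20q begin farther in, and the innermost of all 39. Over the 33 ends in both, an alternative added after seeing the data, the excess was 0.100 in 11 of 12 columns and passed the test (p = 0.00146, exact). These steps differed in composition: the outermost step had 45.8% GC and input reads at 1.18 of the genome average, the innermost 49.3% and 1.07. After GC centring the excess of the outermost step was 0.171 in 12 of 12 columns (p = 0.000488, exact), and on the log2 ratio of OG to input reads it was -0.0215, lower in 9 of 12 columns (p = 0.0415, exact), so the direction turned with the measure.

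**Figure D2:**
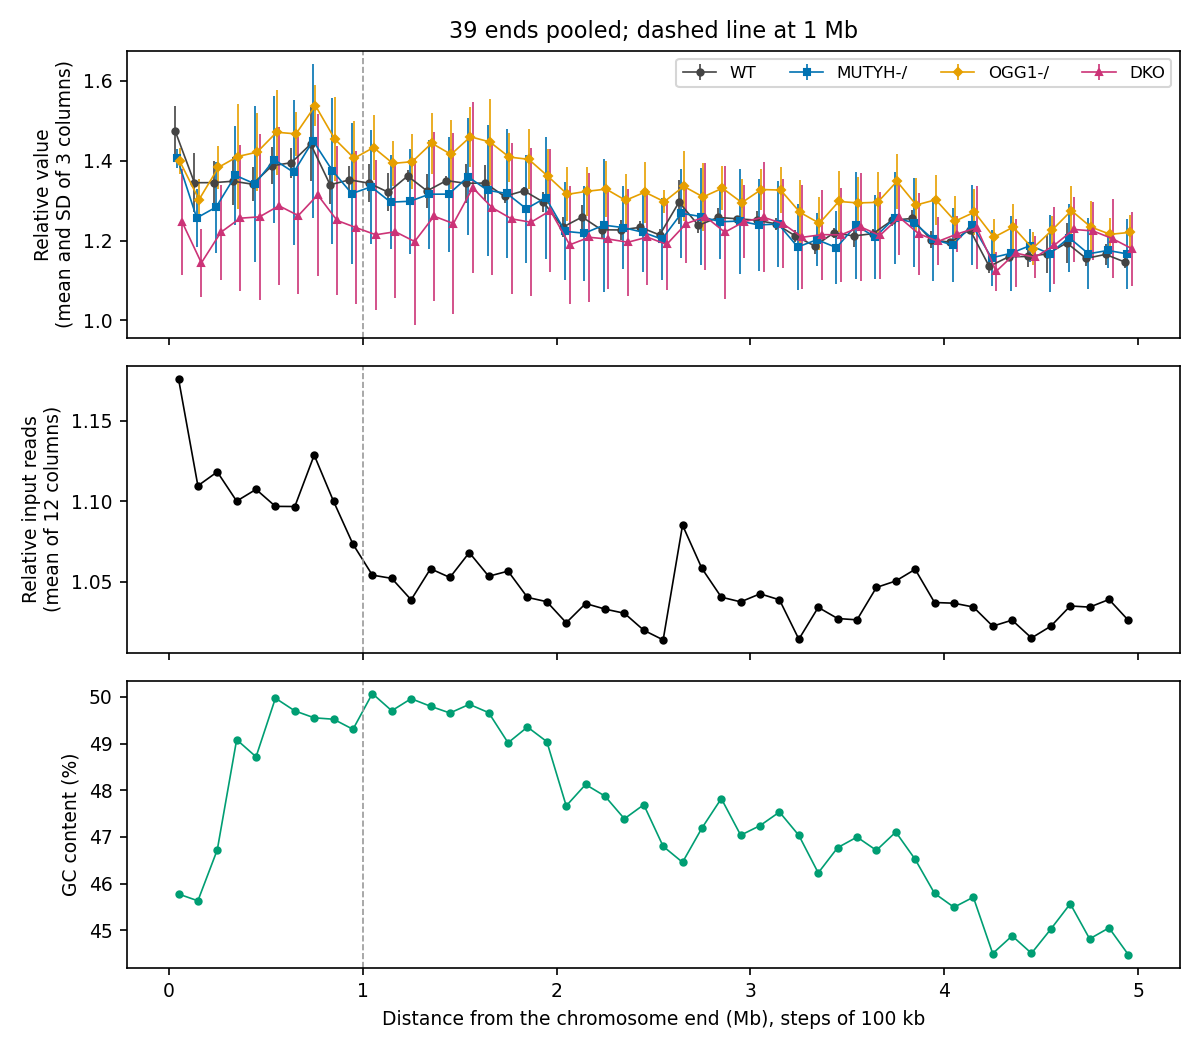
Relative value (mean and SD of 3 columns for each genotype), relative input reads and GC content (means over 12 columns and over bins) against distance from the chromosome end in Mb, in steps of 100 kb over the ends with bins in each step (33 in the outermost step). Within the megabase relative value runs from 1.26 to 1.44, input reads are highest in the outermost step at 1.18, and GC content is lowest in the 2 outermost steps.

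The p ends stood at 1.35 ± 0.123 and the q ends at 1.35 ± 0.126 (SD, n = 12). The difference of -0.00320 had p = 0.816 in the exact sign permutation test. With GC centring the p ends were higher by 0.0444 in 11 of 12 columns (p = 0.000977, exact).

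The ends differed among themselves far more than the 2 regions did. Mean relative value ran from 1.98 at 19p to 0.818 at 3p. The first place of 19p rests on the first 2 MUTYH-/ columns: 16p was higher than 19p in 10 of 12 columns, and the medians were 1.89 at 16p and 1.84 at 19p. Of all ends, 35 lay above the genome average and 27 did so in every column. The outermost megabase was higher than its own next 4 Mb in all 12 columns at 11 ends, and lower in all 12 columns at 5 ends (9q, 4p, 5q, 14q and 1q). In the order of ends, 36 of 38 neighbouring pairs differed by less than the larger of their SDs over the 12 columns. These SDs include shifts of a whole column that the ends share, so they do not measure the spread of a difference between ends. The order ran with base composition: across the 39 ends, the mean value and the GC content had r = 0.924 and Spearman's rho = 0.926, a description over ends that share the same 12 columns.

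**Figure D3:**
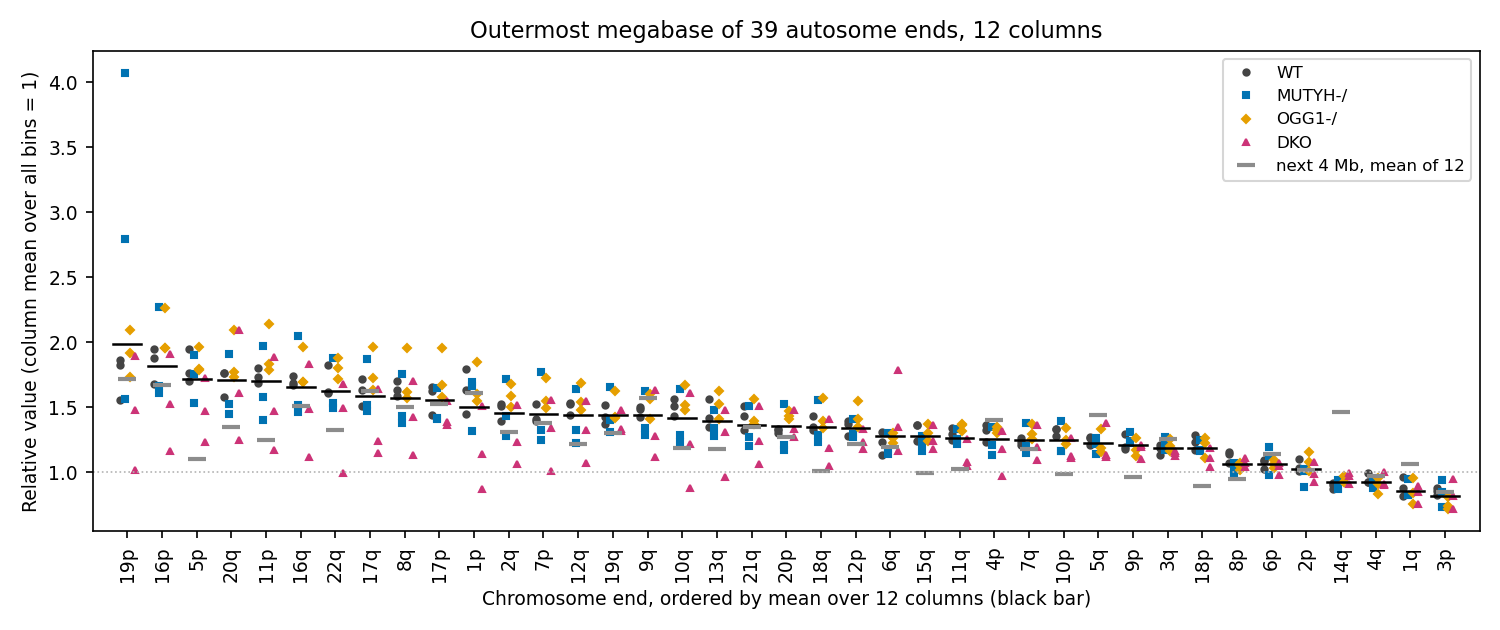
Relative value of the outermost megabase (y axis) in 12 columns, coloured by genotype, at 39 autosome ends ordered by their mean (black bars), with the mean of the next 4 Mb in grey. Values run from 1.98 at 19p to 0.818 at 3p, with 2 MUTYH-/ columns at 19p standing apart.

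The highest 5 ends all had over 50% GC. These were 19p (58.5% GC, 31 protein-coding genes), 16p (57.3%, 48 genes), 5p (52.0%, 16 genes), 20q (55.5%, 34 genes) and 11p (57.0%, 44 genes). At 16p the value was 1.88, 1.95 and 1.68 in WT, 2.27, 1.61 and 1.66 in MUTYH-/, 1.95, 2.26 and 1.95 in OGG1-/ and 1.16, 1.91 and 1.52 in DKO. This end holds the alpha-globin genes and AXIN1, a scaffold that limits Wnt signalling, and it was among the highest 5 ends in 11 of 12 columns. At 20q, the end with RTEL1, a helicase that unwinds telomere loops and G4 structures, the value was 1.77, 1.76 and 1.58 in WT, 1.91, 1.45 and 1.52 in MUTYH-/, 1.73, 2.10 and 1.77 in OGG1-/ and 1.24, 2.09 and 1.61 in DKO. It exceeded its next 4 Mb by 0.363 ± 0.152 (SD, n = 12), in every column. At 11p, with HRAS and the interferon-induced IFITM genes, the mean was 1.70 ± 0.265 and the excess over the next 4 Mb 0.456 ± 0.159, again in every column. The genotypes overlapped at 20q and 11p. At 16p all 3 OGG1-/ columns lay above all WT and all DKO columns. The margin over WT was small, with a lowest OGG1-/ column of 1.953 and a highest WT column of 1.949. The difference between OGG1-/ and WT at 16p did not pass the test (adjusted p = 0.853, limma).

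The lowest 5 ends were 2p, 14q, 4q, 1q and 3p, with 37.0 to 44.1% GC. At 3p, whose one protein-coding gene wholly inside is CHL1, a neural cell adhesion molecule, the value was 0.826, 0.878 and 0.856 in WT, 0.729, 0.845 and 0.939 in MUTYH-/, 0.809, 0.712 and 0.742 in OGG1-/ and 0.946, 0.718 and 0.816 in DKO. It was among the lowest 5 ends in 12 of 12 columns, as was 1q, where 29 of the 35 genes are olfactory receptors and the value was 0.857 ± 0.0708 (SD, n = 12). At 14q, which holds 117 annotated variable segments of the immunoglobulin heavy chain (IGHV) and no gene annotated as protein-coding, the outermost megabase was at 0.922 ± 0.0404 against 1.46 in the next 4 Mb, the widest drop of any end (-0.538 ± 0.199), and GC fell there from 51.6% to 41.3%. At 4q the value was 0.922 ± 0.0469 and at 2p 1.02 ± 0.0736. Leaving out each end in turn moved the difference between the outermost megabase and the next 4 Mb between 0.0832 (without 5p) and 0.112 (without 14q).

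At 19p, 2 columns of MUTYH-/ stood apart. The relative value there was 4.08, 2.80 and 1.57 in MUTYH-/, against 1.82, 1.87 and 1.55 in WT, 1.73, 2.10 and 1.92 in OGG1-/ and 1.01, 1.89 and 1.48 in DKO. The first 2 MUTYH-/ columns lay above all others and the third lay among them. Their input reads at 19p were 2.12 and 1.98 of the genome average, against 1.02 in the third MUTYH-/ column and between 0.953 and 1.30 in the other genotypes. In steps of 50 kb their input stayed at 1.66 or more up to 1000 kb, above every other column in each step. In steps of 10 kb it was 1.33 and 1.24 from 1000 to 1010 kb and 0.945 and 0.728 in the next step. From 1010 to 1510 kb the relative values of these columns were 2.08 and 1.46, within the range of the others. The log2 ratio of OG to input reads in the outermost megabase was 0.294 and 0.159 in these columns and between -0.00864 and 0.319 in the others, so the ratio did not set them apart. In limma, 19p was higher in MUTYH-/ than in WT by 1.06 ± 0.349 (SE), with an adjusted p = 1.00 over all windows.

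**Figure D4:**
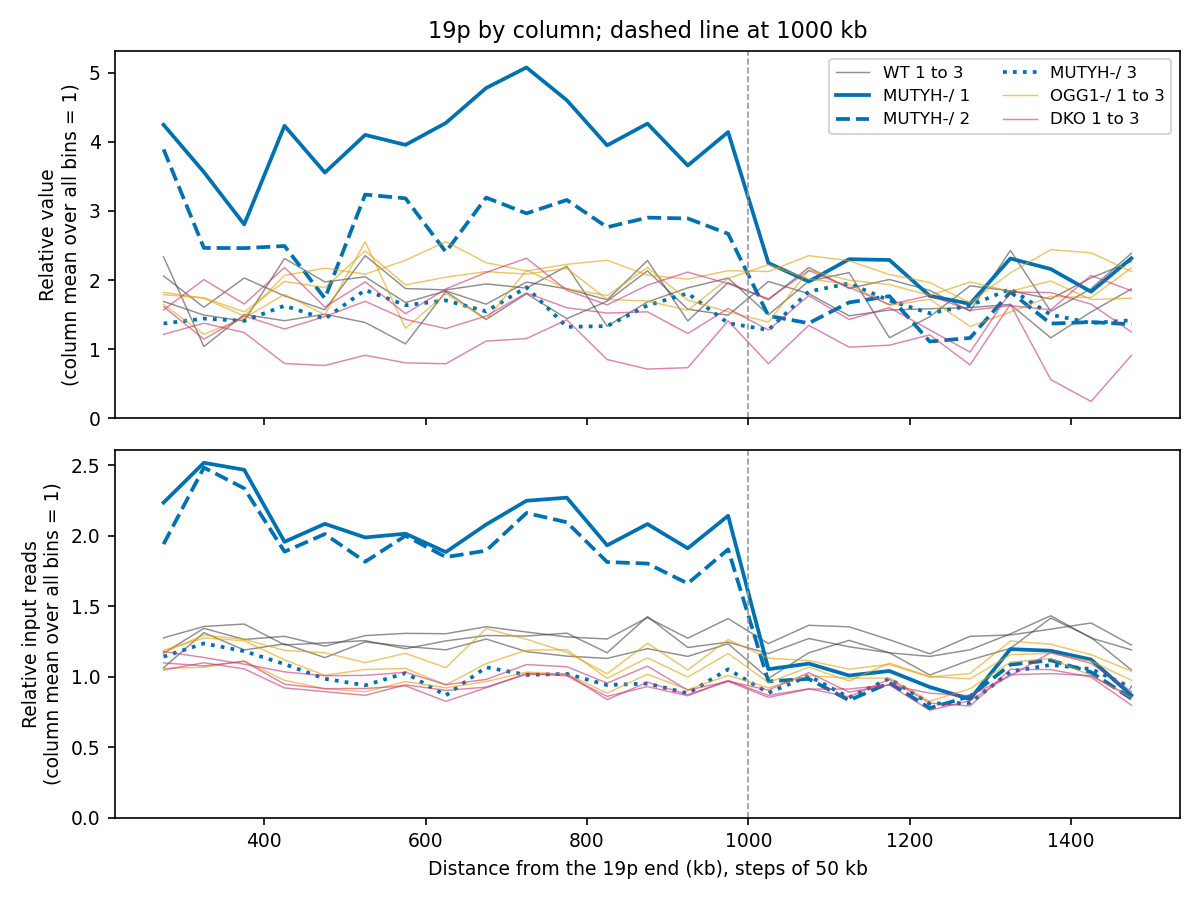
Relative value and relative input reads (y axes, linear, from 0) against distance from the 19p end in kb, in steps of 50 kb, for 12 columns. MUTYH-/ 1 and 2 lie above the other columns in input up to 1000 kb, at 2.12 and 1.98 on average, and return among them beyond it.

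Genes of this stretch had high values in the same columns, and 0 of the 4 listed protease genes passed the test in limma. The myeloid protease cluster (chr19:825097-867884), with the neutrophil granule proteins AZU1, PRTN3 and ELANE and the complement factor CFD, had relative values of 3.80, 3.07 and 1.52 in MUTYH-/, 1.59, 1.10 and 1.61 in WT, 1.84, 2.39 and 1.64 in OGG1-/ and 0.903, 1.69 and 1.40 in DKO. Its input reads in MUTYH-/ were 1.95, 1.72 and 0.868. BSG, a carrier of monocarboxylate transporters to the membrane, had 5.15, 3.64 and 2.68 in MUTYH-/, 1.84, 2.20 and 0.996 in WT, 1.39, 2.14 and 2.02 in OGG1-/ and -0.0882, 0.930 and 1.34 in DKO. All 3 MUTYH-/ columns lay above the others, and their input reads at BSG were 1.73, 1.66 and 0.918, so the third was high without raised input. The difference from WT did not pass the test (adjusted p = 0.829, limma).

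At 6q, 2 DKO columns carried more input. Input reads of the outermost megabase were 1.44, 1.43 and 0.901 in DKO and between 0.962 and 1.06 in the other 9 columns, and this extended through the next 4 Mb at 1.43, 1.42 and 0.993. The relative value was 1.34, 1.78 and 1.16 in DKO, and 1.23, 1.31 and 1.13 in WT. With both 6q and 19p left out, an alternative added later, the distal excess of DKO minus that of WT was -0.107, and the level of MUTYH-/ minus that of WT was -0.0410.

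At 5p the value was 1.76, 1.95 and 1.70 in WT, 1.90, 1.53 and 1.76 in MUTYH-/, 1.79, 1.96 and 1.80 in OGG1-/ and 1.23, 1.73 and 1.47 in DKO, and it exceeded the next 4 Mb by 0.610 ± 0.167 (SD, n = 12), in every column. A stretch of raised input there was shared by all columns. Between 700 and 850 kb, bounds set after seeing the input in steps of 50 kb, lie ZDHHC11B and most of ZDHHC11. The relative value of this stretch was 3.06 ± 0.385 (SD, n = 12), against 1.46 ± 0.191 in the rest of that megabase, and its input reads ranged from 2.19 to 2.58 of the genome average over the 12 columns. In the rest, input reads ranged from 1.08 to 1.33. The log2 ratio of OG to input reads was 0.105 in the stretch and 0.0824 in the rest. ZDHHC11B, an acyltransferase gene with the close copy ZDHHC11 beside it, had the highest mean of the 583 genes with enough bins, at 3.81, and reads of the pair may be split between them. Of the 51 bins of the outermost megabase that were among the highest in every genotype, 25 were at 5p.

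No end passed the test between a knockout and WT. All 39 outermost megabases were tested with limma among 2855 windows of 1 Mb, and 0 were called in any of the 3 comparisons at an adjusted p of 0.05, where percent called over all windows was 0 as well. The smallest adjusted p among the ends was 0.280, in DKO. Without adjustment, a p of 0.05 was reached by 2 ends in MUTYH-/ (19p higher, 8p lower), 0 in OGG1-/ and 5 in DKO (1p, 5p, 11q, 17q and 22q, all lower), where 1.3%, 2.87% and 5.39% of all windows reached it. Of all windows, 0.525% reached it with a higher and 0.771% with a lower value in MUTYH-/, 0.701% and 2.17% in OGG1-/, and 4.2% and 1.19% in DKO. In windows of 100 kb, 0 of 373 in the outermost megabase were called, where the share called of all such windows was 0.00354% for MUTYH-/, 0% for OGG1-/ and 0.0106% with both glycosylases lost. The value was lower in DKO than in WT at 36 of 39 ends (92.3%) and in 48.7% of all windows. The median difference over the ends was -0.143 in DKO, -0.0349 in MUTYH-/ and 0.0540 in OGG1-/, against medians of 0.00129, -0.00154 and -0.00922 over all windows. The comparisons share the WT columns, and the ends share each column's own scale and GC dependence. With GC centring the DKO value was lower at 35 ends with a median of -0.109 and the MUTYH-/ value at 28 with a median of -0.0322. The OGG1-/ median turned to -0.0325, with 27 ends lower and 12 higher. On this scale the share of all windows with a lower value was not computed. With GC centring, 1p alone of the 39 ends was called in DKO, by -0.375 at an adjusted p = 0.0380 in limma, on its 207 bins, where 9 of all 2855 windows were called (0.315%). Its relative value was 1.63, 1.79 and 1.45 in WT and 0.870, 1.51 and 1.14 in DKO, which overlap. Its input reads were 1.36, 1.37 and 1.33 of the genome average in WT and 1.13, 1.07 and 0.911 in DKO, and their part in this call was not tested.

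Bins with the highest values were more frequent in the outermost megabase. In each column, bins that reached the 95th percentile were counted, and their share exceeded that of the next 4 Mb by 1.71 percentage points on average, in 12 of 12 columns (p = 0.000488, exact sign permutation, the smallest it can give). Bins that reached it in at least 2 of 3 columns, called high-value bins here, made up 3.63% of the outermost megabase for WT, a share of 3.64% for MUTYH-/, one of 4.34% for OGG1-/ and one of 2.52% for DKO. In the next 4 Mb these shares were 2.32%, 2.12%, 2.96% and 2.02%, and over all bins 1.33%, 1.32%, 1.53% and 1.29%. This ranking is on the subtracted value, whereas the study defined its OG-enriched bins on the log2 ratio of OG to input. When bins were ranked by OG over input reads, the excess was 0.0225 percentage points, above 0 in 5 of 12 columns (p = 0.847, exact).

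In the outermost megabase 51 bins were high-value bins in every genotype, 0.143% of it, against 0.0310% of the next 4 Mb and 0.0312% of all bins. They lay at 11 ends, with 25 at 5p, 9 at 9p and 4 at 16p. The highest was chr20:64088001-64089000 in OPRL1, the nociceptin receptor gene, with a relative value of 10.3 ± 3.42 (SD, n = 12) and from 5.15 to 15.1. Next was chr16:858001-859000 in LMF1, a maturation factor of lipases, with 8.96 ± 5.03, in which 97.4% of the 12-mers occur more than once. The bin chr17:256001-257000 in RPH3AL, a gene of vesicle release, had 7.20 ± 3.58 and 96.4% repeated 12-mers. The remaining 2 of the highest 5 were chr5:761001-762000 in ZDHHC11B, with 8.21 ± 3.14, and chr17:201001-202000, in no annotated gene, with 7.80 ± 4.64. The latter had a lowest column of -2.73. Of the 12-mers in these 2 bins, 5.26% and 48.3% occur more than once. All 5 had input reads between 3.66 and 5.70 of the genome average, and log2 ratios of OG to input reads between 0.194 and 0.413.

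Tandem repeats were compared as a class, chosen after these bins were seen. The printed 16p and 17p bins belong to it, whereas the OPRL1 bin of 20q, with 39.4% repeated 12-mers, does not. Neither do the bins chr5:761001-762000 and chr17:201001-202000. Bins in which at least 50% of the 12-mers occur more than once made up 2.86% of the outermost megabase (1023 bins), 1.15% of the next 4 Mb and 0.215% of all bins, so 16.9% of all such bins lay in the outermost megabase. Their relative value was 1.32 ± 0.247 against 1.35 ± 0.121 in the other bins there (SD, n = 12 columns), a difference of -0.0352 (p = 0.485, exact sign permutation), which turned to 0.0168 without replicate 1. With GC centring the difference was -0.288, lower in 11 of 12 columns (p = 0.000977, exact). Of the 51 bins named above, 8 belonged to this class.

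Bins with telomere repeats were lower than their neighbours in most columns, without passing the test. A run of at least 2 copies of TTAGGG or CCCTAA, on either strand, was held by 52 bins of the outermost megabase (0.146%), against 0.0407% of the next 4 Mb and 0.0242% of all bins. Their relative value was 1.24 ± 0.223 against 1.35 ± 0.123 in the other bins, lower in 9 of 12 columns (p = 0.0820, exact sign permutation). After GC centring the difference passed it, at -0.262 in 11 of 12 columns (p = 0.00391, exact), and for the log2 ratio of OG to input reads it was 0.000295 (p = 0.990, exact). The telomeres themselves were not analysed here.

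G4 motifs, taken as 4 runs of at least 3 G parted by 1 to 7 bases on either strand, were held by 21.6% of the bins of the outermost megabase, 20.3% of the next 4 Mb and 9.80% of all bins. In the outermost megabase these bins had a relative value of 1.52 ± 0.233, against 1.30 ± 0.0959 in the others, higher in 11 of 12 columns (difference 0.217, p = 0.00195, exact sign permutation). Their log2 ratio of OG to input reads was also higher, by 0.119 (p = 0.000977, exact), in 11 of 12 columns. They had 57.6% GC against 46.0%, and after GC centring they were lower in 12 of 12 columns (difference -0.0910, p = 0.000488, exact). Those rich in GC share the wide highest stratum, so GC was matched only in part. The first DKO column was the one with no excess in G4 bins, at -0.174.

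CpG-dense bins, with over 55% GC and an observed to expected CpG ratio over 0.65, made up 3.34% of the outermost megabase, 1.74% of the next 4 Mb and 0.682% of all bins. Their relative value was 1.17 ± 0.329 against 1.36 ± 0.119, a difference of -0.183, lower in 9 of 12 columns (p = 0.0342, exact sign permutation). In 2 of the 3 WT columns the direction was the opposite, with differences of 0.167, -0.0218 and 0.258, whereas those of MUTYH-/ were -0.265, -0.426 and -0.148, those of OGG1-/ -0.129, -0.278 and 0.00551, and those of DKO -0.690, -0.285 and -0.381. The call was lost without replicate 1 (-0.159, p = 0.0781, exact) and without replicate 2 (-0.148, p = 0.234, exact). Input reads in these bins were only 0.681 of the genome average. With GC centring the difference was -0.527, lower in 12 of 12 columns, those of WT included (p = 0.000488, exact sign permutation). CpG-dense bins, at 66.7% GC on average, nearly all fell in the highest GC stratum. That stratum is wide, so this was not a comparison at equal GC. On the log2 ratio of OG to input reads CpG-dense bins were higher, by 0.177, in 11 of 12 columns (p = 0.00195, exact), opposite to the subtracted value.

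Genic bins, those centred in a protein-coding gene, exceeded the other bins of the outermost megabase in every column. Their relative value was 1.42 ± 0.151 against 1.25 ± 0.0844 (difference 0.176, p = 0.000488, exact sign permutation). This held after GC centring, by 0.0491 in 11 of 12 columns, and on the log2 ratio of OG to input reads, by 0.0354 in 11 of 12 columns (p = 0.000977 for each, exact). Genes covered 59.0% of the bins of the outermost megabase, 51.9% of the next 4 Mb and 46.1% of all bins.

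**Figure D5:**
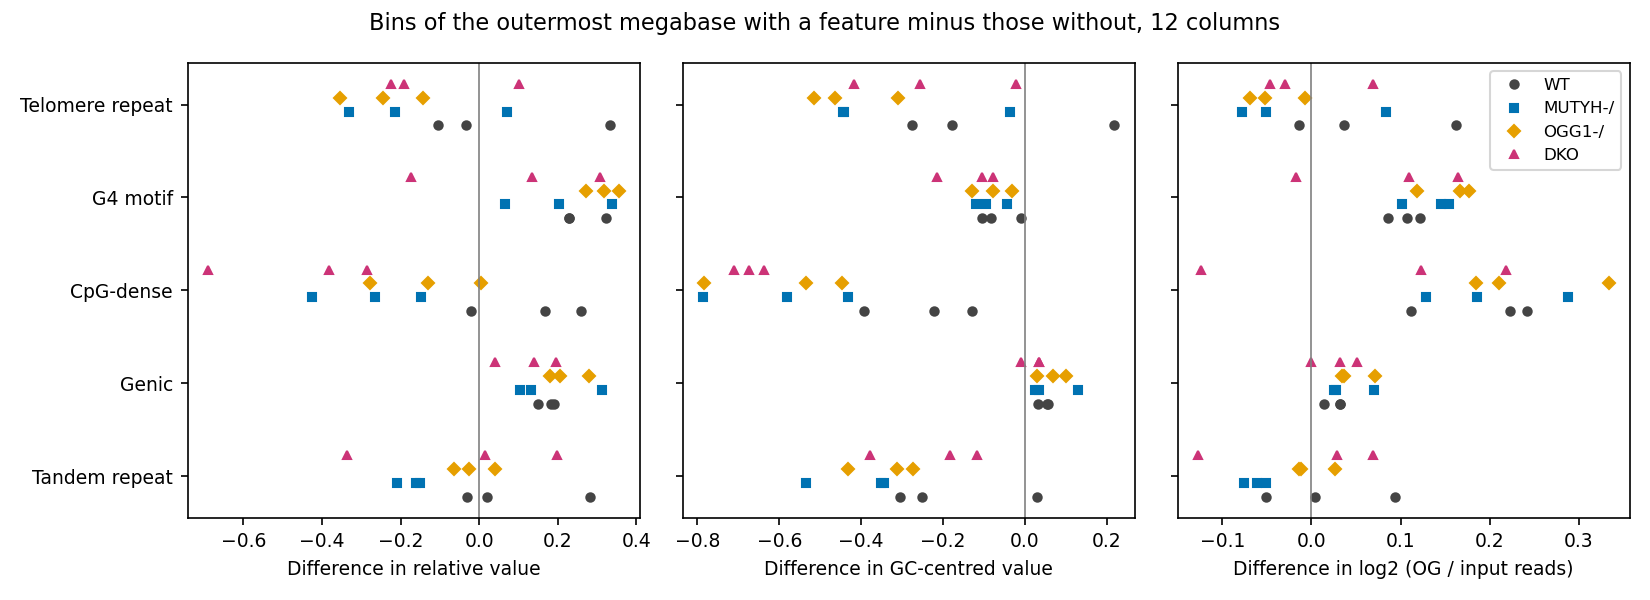
Bins of the outermost megabase that hold a feature minus those that do not, in relative value, GC-centred value and log2 ratio of OG to input reads (x axes), 1 point for each of 12 columns. Genic bins are above 0 in at least 11 of 12 columns on each measure, G4 bins change side with GC centring (0.217 and -0.0910) and CpG-dense bins with the ratio to input (-0.183 and 0.177).

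Of the 652 protein-coding genes with their whole body in the outermost megabase, 583 had at least 3 bins. Their median relative value was 1.54, against 1.26 over all 18401 genes tested, and 541 lay above 1 (92.8%), against 13354 of all genes tested (72.6%). In limma, 0 of the 583 passed an adjusted p of 0.05 in any knockout, as did 0 of all genes. Without adjustment, a p of 0.05 was reached by 35 in MUTYH-/ (20 higher, 15 lower), 25 in OGG1-/ (18 higher, 7 lower) and 51 in DKO (6 higher, 45 lower), where 4.69%, 4.9% and 5.34% of all genes reached it. Of all genes, 2.09% reached it with a higher and 2.6% with a lower value in MUTYH-/, 3.12% and 1.78% in OGG1-/, and 1.89% and 3.45% in DKO.

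The 10 genes of genome maintenance all lay above the genome average, as did 92.8% of the 583. They included RTEL1 at 1.82 ± 0.329 (SD, n = 12), FANCA, of the Fanconi anaemia complex that repairs crosslinks, at 1.71 ± 0.325, and POLE, the catalytic subunit of a replicative polymerase, at 1.58 ± 0.303. TYMS, the thymidylate synthase, was the lowest at 1.20 ± 0.347, and 0 of 10 passed the test in any knockout. RAD52, a recombination mediator, was at 1.40 ± 0.203. RECQL4, a helicase of the RecQ family, was at 1.53 in WT and 0.587 in DKO, a difference of -0.946 ± 0.428 (SE) with an adjusted p = 0.929 in limma. Among the listed genes of signalling, regulation and other roles, 13 had enough bins and 13 lay above 1. This was again near the share of all genes at these ends (92.8%, against 72.6% of all genes tested). Their values ran from ARSA, a lysosomal sulfatase, at 2.10 ± 0.392 to DMRT1, a regulator of the testis, at 1.09 ± 0.119. TBP, the TATA-binding protein at 6q, was at 0.975 in WT and 1.68 in DKO (adjusted p = 0.924, limma), where 2 DKO columns had raised input.

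The gene clusters of these ends differed with their composition. The alpha-globin cluster (chr16:142728-181179), which encodes the alpha-like chains of haemoglobin, had 1.92 ± 0.407 (SD, n = 12) at 55.9% GC. In WT its columns were 2.32, 2.56 and 1.88, in MUTYH-/ 1.92, 1.85 and 1.31, in OGG1-/ 1.45, 2.38 and 2.16 and in DKO 1.30, 1.97 and 1.88, which overlap. The beta-defensin cluster of 20p (chr20:87250-261096), which encodes antimicrobial peptides of epithelia, had 0.981 ± 0.117 at 38.9% GC. Its columns were 1.04, 1.23 and 1.08 in WT, 0.987, 0.887 and 0.990 in MUTYH-/, 0.940, 0.942 and 1.02 in OGG1-/ and 1.03, 0.748 and 0.887 in DKO. The highest knockout column and the lowest WT column, 1.03 and 1.04, were close. Of its genes with at least 3 bins, DEFB126 had -0.0518 in WT and 1.66 in DKO over 3 bins (adjusted p = 0.784, limma), and the cluster's total does not show that direction. Olfactory receptor genes, expressed in the nose, gave 0.838 ± 0.0737 over 242 bins at 38.9% GC, and zinc finger (ZNF) genes, mostly repressors of repeats and other genes, gave 1.25 ± 0.0823 over 1277 bins at 45.8% GC. Of 23 receptor genes with at least 3 bins 15 lay below 1, and of 56 ZNF genes 7 did. In these lists 0 genes passed the test in any knockout.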

How the data were processed

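OG-seq values came from a deposited table of 1 kb bins in GRCh38 with 12 columns. The unit is a score: the authors trimmed reads (cutadapt 2.8), mapped them with Bowtie2 2.3.5.1, marked duplicates (SAMtools), counted reads (bedtools), removed blacklisted and incomplete bins and subtracted SES-scaled input, so values can be negative (22.2 to 25% of bins). Subtraction keeps part of any input difference in the value. OG and input reads were solved as whole numbers (at most 8 bins of a column failed, 0 of the members) after a test on simulated data.

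Columns were grouped by genotype. Single values were tested with exact permutation, windows (at least 200 bins) and genes (at least 3 bins) with limma 3.58.1 (R 4.3.3), variance trend and Benjamini-Hochberg adjustment over all, after a self-test. Telomere runs, G4 and CpG classes were found in GRCh38, genes in GENCODE v44.

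Members and lists were chosen with earlier results of these data known. Named were the 5 highest and 5 lowest ends, ends called or at 6q, the 5 highest recurrent bins and listed genes wholly in the megabase. Single bins that the rule also named are not reported here. HBA1, HBA2, HBQ1, DEFB127, DEFB128, DUSP22, FRG1 and DUX4 had under 3 bins, and TERT and NTHL1 lay outside. Alternatives were GC centring, other scales, filters and widths.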

Additional observations from a re-analysis of the deposited data

How the results depend on the processing

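Of 251 alternative values of 22 results, 14 turned direction, 4 lost and 5 gained a call, and 9 moved otherwise. The 6 comparisons of a knockout with WT in level or difference cannot go below p = 0.1 in an exact permutation test of 3 columns against 3, so no alternative could change their side of the threshold, and the limma counts have no direction. The difference between the outermost megabase and the next 4 Mb kept its direction and its call except on the log2 ratio of OG to input reads (0.00426). On that ratio the excess of high-value bins fell to 0.0225 percentage points, and these results turned direction: MUTYH-/ minus WT in level (0.00866) and in difference (0.000682), OGG1-/ minus WT in difference (0.00484), the outermost 100 kb (-0.0215), telomere repeat bins (0.000295) and CpG-dense bins (0.177). With GC centring the level of OGG1-/ minus WT (-0.0220), p minus q ends (0.0444) and G4 bins (-0.0910) turned, and the outermost 100 kb (0.171), telomere repeat bins (-0.262) and tandem repeat bins (-0.288) passed the threshold, as did the outermost 100 kb with negative values set to 0 (0.0495) or over the 33 ends with bins in both steps (0.100). At a width of 2 Mb the difference of OGG1-/ minus WT was 0.000516. The share of high-value bins by genotype exceeded that of the next 4 Mb by 1.18 percentage points, by 0.168 when all 3 columns were required, 0.284 at the 99th percentile and 0.238 when ranked on the ratio. In limma 51 of 57 counts stayed at 0. Without adjustment 2 ends were called in MUTYH-/ and 5 in DKO, and 35, 25 and 51 genes in MUTYH-/, OGG1-/ and DKO, and with GC centring 1 end was called in DKO, of 9 windows called among 2855. Leaving out replicate 1, 2 or 3 moved the level of MUTYH-/ minus WT between -0.0939 and 0.0439, its difference between -0.0283 and 0.00768, the level of OGG1-/ minus WT between 0.0236 and 0.0853, that of DKO minus WT between -0.202 and -0.0403, p minus q ends between -0.0105 and 0.00168, CpG-dense bins between -0.241 and -0.148 and tandem repeat bins between -0.0787 and 0.0168. Without replicate 1 or 2 the call of CpG-dense bins was lost. The cause of these shifts was not tested.

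With the column number as a replicate block, the gap of DKO minus WT in the difference was -0.105 (p = 0.25, exact, the smallest that 3 pairs allow), and 0 ends and 0 genes were called in limma. The deviations of columns did not show that the numbers pair them. With the same number they correlated with r from -0.788 to 0.739 (mean -0.0402). With different numbers r ran from -0.7105 to 0.815 (mean 0.0308). These correlations rest on 3 columns a genotype and cannot exclude a pairing. Leaving out 19p, both 6q and 19p, tandem repeat bins or ends without bins in both steps was chosen after seeing the data.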
